A study of Mus musculus with 4 samples.

Results

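The aryl hydrocarbon receptor pathway was followed in mouse skeletal stem cells through 7 genes, Ahr, Arnt, Ahrr, Cyp1a1, Cyp1b1, Tiparp and Nqo1, out of 22180 genes with a probe set on the array. They are the receptor, its partner, its repressor and 4 classic target genes. The pathway was picked because the signal of Ahr was much lower in knockout cells, so the Ahr values are given as a description without a p-value. The other 6 genes were taken for their place in the pathway, with results of the same comparison already known.

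There were 4 arrays. Mmp14 knockout cells (Mmp14-/-, 2 arrays) were set against Mmp14 wild type cells (Mmp14+/+, 2 arrays). Both kinds of cell came from mice aged 4 to 6 weeks and spent 48 h in a 3D collagen gel before RNA was taken. Mmp14 encodes MT1-MMP, a protease anchored in the cell membrane that cleaves collagen. The labels give neither the deleted part of Mmp14, nor whether it was deleted in all cells of the mouse, nor whether the 2 arrays of a group came from separate animals or cultures. P-values therefore measure the spread between these arrays, which may be technical.

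The aryl hydrocarbon receptor is a transcription factor of the bHLH-PAS family that waits in the cytosol in a complex with the chaperone HSP90. Once it binds a ligand, such as dioxin or some products of tryptophan breakdown, it enters the nucleus, pairs with ARNT and binds the xenobiotic response element, whose core reads GCGTG. Among the genes it switches on are the cytochrome P450 genes Cyp1a1 and Cyp1b1 and its own brakes, Ahrr and Tiparp. In bone, dioxin is known to disturb the maturation of osteoblasts through this receptor.

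Promoter windows of the repressor and of all 4 target genes are shown because these genes are the usual readouts of the receptor. RefSeq promoters of GRCm38.p6 were matched by symbol for 6 of the 7 genes, and Ahr was not matched. Each window is the 250 bases before the annotated start of the gene, written 5′ to 3′ on the strand of the gene, and capitals mark GCGTG or its reverse complement CACGC.
Ahrr, chr13:74292332-74292581, - strand: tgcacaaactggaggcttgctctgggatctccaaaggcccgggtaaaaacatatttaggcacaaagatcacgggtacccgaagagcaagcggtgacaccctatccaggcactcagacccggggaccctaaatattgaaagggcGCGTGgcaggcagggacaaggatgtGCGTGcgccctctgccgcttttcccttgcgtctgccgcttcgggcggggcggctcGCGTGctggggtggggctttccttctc
Cyp1a1, chr9:57697363-57697612, + strand: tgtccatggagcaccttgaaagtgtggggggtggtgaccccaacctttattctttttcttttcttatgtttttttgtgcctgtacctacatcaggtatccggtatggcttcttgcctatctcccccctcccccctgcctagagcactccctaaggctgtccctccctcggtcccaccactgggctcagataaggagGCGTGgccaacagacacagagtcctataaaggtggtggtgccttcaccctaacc
Cyp1b1, chr17:79715062-79715311, - strand: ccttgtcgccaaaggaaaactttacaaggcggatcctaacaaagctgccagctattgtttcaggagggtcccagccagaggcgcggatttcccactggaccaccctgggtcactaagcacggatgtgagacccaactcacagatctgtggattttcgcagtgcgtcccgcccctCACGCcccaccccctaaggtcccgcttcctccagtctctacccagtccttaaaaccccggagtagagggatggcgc
Tiparp, chr3:65528197-65528446, + strand: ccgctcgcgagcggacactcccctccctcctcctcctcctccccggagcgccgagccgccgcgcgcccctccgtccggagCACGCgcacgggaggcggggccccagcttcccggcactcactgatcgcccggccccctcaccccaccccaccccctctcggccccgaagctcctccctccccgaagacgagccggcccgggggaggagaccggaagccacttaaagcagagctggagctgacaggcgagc
Nqo1, chr8:107403206-107403455, - strand: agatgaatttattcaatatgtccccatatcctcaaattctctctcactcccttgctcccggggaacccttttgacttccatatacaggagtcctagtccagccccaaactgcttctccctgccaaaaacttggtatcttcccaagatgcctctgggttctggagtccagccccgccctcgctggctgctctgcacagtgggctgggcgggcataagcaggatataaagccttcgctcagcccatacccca
The GCGTG core, searched on both strands, stood 3 times in the window of Ahrr and once each in those of Cyp1a1, Cyp1b1, Tiparp and Arnt. It was not in the window of Nqo1, which is printed without capitals. Bases outside these windows were not searched. Of all 32851 promoter windows of the same length, 28.2% held the core at least once and 8.63% held it 2 or more times. These shares are not matched for base content. The bases G and C made up 53.2% (Nqo1) to 75.2% (Tiparp) of the 6 windows, against a median of 52.4% over all windows. The longer form TTGCGTG was in none of the 6 windows and in 0.925% of all windows. The antioxidant response element core TGACNNNGC, the motif of NRF2 and its partners, was in the window of Arnt 2 times. Of all windows 10.2% held it at least once and 0.658% held it 2 or more times. In the window of Arnt it did not overlap GCGTG. The letters GCGTG can also be read by hypoxia-inducible factors, and a match in a window is a description of its letters.

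Mmp14 was measured at 5.77 and 5.84 log2 in the knockout arrays, against 8.77 and 8.83 log2 in the wild type arrays. Between the 2 arrays of a group, the median absolute difference over the tested genes was 0.116 log2 in knockout and 0.140 log2 in wild type. Of 10 markers of skeletal stem and stromal cells 9 had a probe set with 1 gene symbol, all 9 were above the dim level of 2.34 log2, and their mean signal was 8.26 and 8.30 log2 in knockout, against 7.68 and 7.76 log2 in wild type. In that list 3 genes rose, Pdgfra (1.77 log2), Cxcl12 (1.81 log2) and Cd200 (1.46 log2), and the other 6 were not called, 4 of them with values below 0, from −0.50 log2 for Thy1 to −0.01 log2 for Prrx1. The list median was 0.35 log2, and 6 of the 9 genes had an unadjusted limma p under 0.05. Of all tested genes 11.3% were called at an adjusted p under 0.05, and 27.5% had an unadjusted p under 0.05. Markers of granulocytes (4 of 4 with a probe set), erythroid cells (1 of 4) and endothelium (5 of 5) all averaged below the dim level, and the leukocyte gene Ptprc gave 1.65 and 1.51 log2 in knockout, against 1.55 and 1.86 log2 in wild type. Above the dim level were 3 of 8 leukocyte markers with a probe set, 2 of 4 of osteoclasts and 3 of 3 of epithelium, with differences from −0.56 to 0.17 log2, and limma called none of these 8 genes at an adjusted p under 0.05, while 2 of them, Lyz2 (−0.50 log2) and Acp5 (−0.56 log2), had an unadjusted p under 0.05, beside 27.5% of all tested genes. Of 3 skeletal muscle markers Pax7 alone was above the dim level, at 4.55 and 4.36 log2 in knockout, against 3.17 and 3.12 log2 in wild type. Of 4 markers of sex, all above the dim level in every array, 1 rose, 1 fell and 2 were not called. Each array thus held signal of both Xist and Y-linked genes. Xist averaged 9.19 log2 in knockout and 8.47 log2 in wild type, and the Y-linked gene Eif2s3y averaged 5.29 log2 in knockout and 5.98 log2 in wild type, while the Y-linked genes Kdm5d (−0.42 log2) and Uty (−0.25 log2) were not called. The part of the shifts of these 3 stromal genes, Pax7, Xist and Eif2s3y in the results given here was not tested, and fewer cells of a type cannot be told apart from less RNA per cell.

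Ahr, the receptor, gave 6.15 and 5.84 log2 in the knockout arrays, against 8.65 and 8.37 log2 in the wild type arrays. Both knockout arrays lay far below both wild type arrays, and the groups did not overlap. The difference was −2.52 log2 (SE 0.155, n = 2 per group), which is a signal 5.72-fold lower in knockout and 17.5% of the wild type level. Each knockout array set against each wild type array gave a difference between −2.81 and −2.23 log2, while the arrays of a group differed from each other by 0.307 log2 in knockout and 0.277 log2 in wild type. Among all 12708 tested genes, unnamed loci included, this was the 10th largest decrease, with Ahr's fall being what chose the pathway. The knockout signal was still well above the dim level of 2.34 log2.

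Arnt, the partner with which the receptor binds DNA, gave 8.14 and 8.09 log2 in knockout, against 8.30 and 8.17 log2 in wild type. Both knockout arrays were the lower ones, by a margin smaller than the gap between the wild type arrays. The difference was −0.12 log2 (SE 0.107, limma adjusted p = 0.539, 95% confidence interval −0.38 to 0.15), or 92.2% of the wild type level. Arnt was not called.

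**Figure D1:**
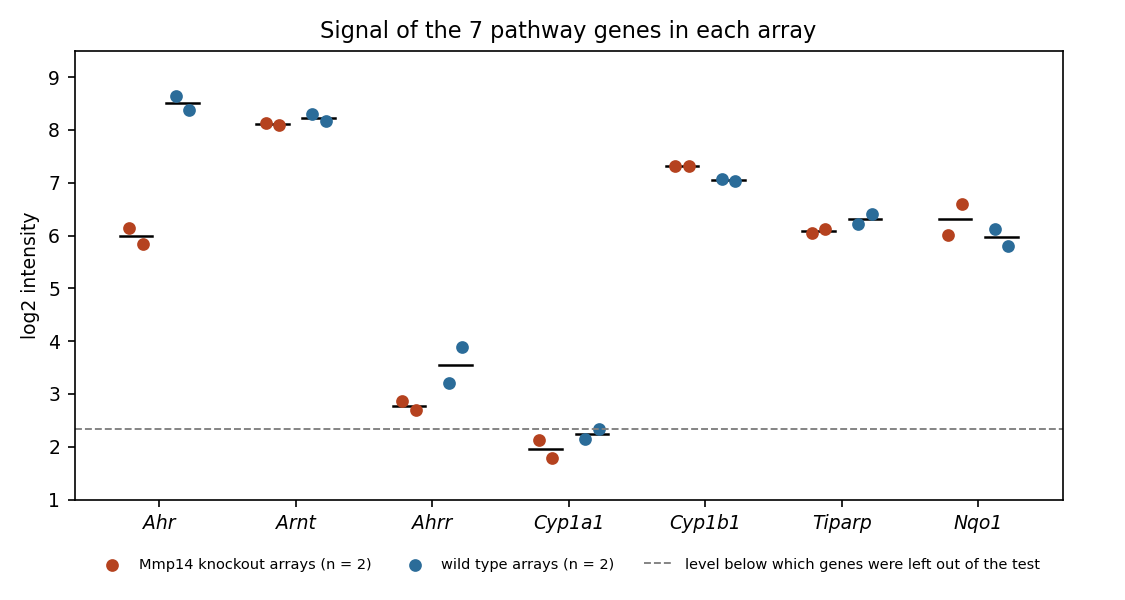
Log2 intensity (y axis) of the 7 pathway genes (x axis) in each array, with knockout on the left and wild type on the right of each pair. Points are arrays, black lines are group means of n = 2, and the dashed line is the dim level of 2.34 log2. Ahr shows a wide gap between genotypes (means of 6.00 log2 in knockout and 8.51 log2 in wild type), and both groups of Cyp1a1 average below the dashed line.

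Ahrr, the repressor, which competes with the receptor for ARNT and is itself induced by it, gave 2.87 and 2.69 log2 in knockout, against 3.20 and 3.90 log2 in wild type. The knockout arrays lay close together just above the dim level, while the wild type arrays stood 0.692 log2 apart. The difference was −0.77 log2 (SE 0.230, 95% confidence interval −1.33 to −0.21), or 58.6% of the wild type level, and it was not called (limma adjusted p = 0.0887). The value leaned on which wild type array was used. It was −1.12 log2 and called without wild type replicate 1 (limma adjusted p = 0.0154) and −0.43 log2 and not called without wild type replicate 2 (limma adjusted p = 0.149).

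Tiparp encodes PARP7, an ADP-ribosyltransferase that marks the receptor for breakdown and is induced by it. It gave 6.05 and 6.12 log2 in knockout, against 6.22 and 6.41 log2 in wild type. The groups did not overlap, with the closest pair of arrays 0.10 log2 apart. The difference was −0.23 log2 (SE 0.115, limma adjusted p = 0.263, 95% confidence interval −0.51 to 0.05), and Tiparp was not called. Its second probe set was dim in all 4 arrays, at no more than 1.54 log2 in knockout and 1.55 log2 in wild type. With the mean of both probe sets the difference was −0.13 log2, and it was −0.14 log2 without wild type replicate 2.

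Cyp1a1, the P450 enzyme gene most often used to read receptor activity, gave 2.12 and 1.79 log2 in knockout, against 2.14 and 2.34 log2 in wild type. Its mean of 2.10 log2 was below the dim level, so it was left out of the test and no fold is given. Cyp1a2, its relative expressed mainly in liver, was as dim, with 2.13 and 1.90 log2 in knockout and 1.95 and 1.85 log2 in wild type.

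Cyp1b1, the P450 enzyme gene of mesenchymal tissues, was far brighter than the dim level and went the other way from Ahr. It gave 7.31 and 7.32 log2 in knockout, against 7.07 and 7.03 log2 in wild type. Both knockout arrays were higher, and the replicates of each group lay within 0.036 log2 of each other. The difference was 0.27 log2 (SE 0.0998, 95% confidence interval 0.02 to 0.51), a level of 120% of wild type, and was not called (limma adjusted p = 0.149). The SE is larger than these replicates alone would give because limma draws each gene's variance towards that of all genes.

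Nqo1 encodes a quinone reductase that is controlled by NRF2 as well as by the receptor. It gave 6.01 and 6.60 log2 in knockout, against 6.13 and 5.80 log2 in wild type. The groups overlapped, since knockout replicate 1 lay between the 2 wild type arrays. The difference was 0.34 log2 (SE 0.220, limma adjusted p = 0.380, 95% confidence interval −0.20 to 0.88), and Nqo1 was not called. Knockout replicate 2 carried most of it: without that array the difference was 0.04 log2, against 0.64 log2 without knockout replicate 1. It was 0.18 log2 without wild type replicate 2.

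**Figure D2:**
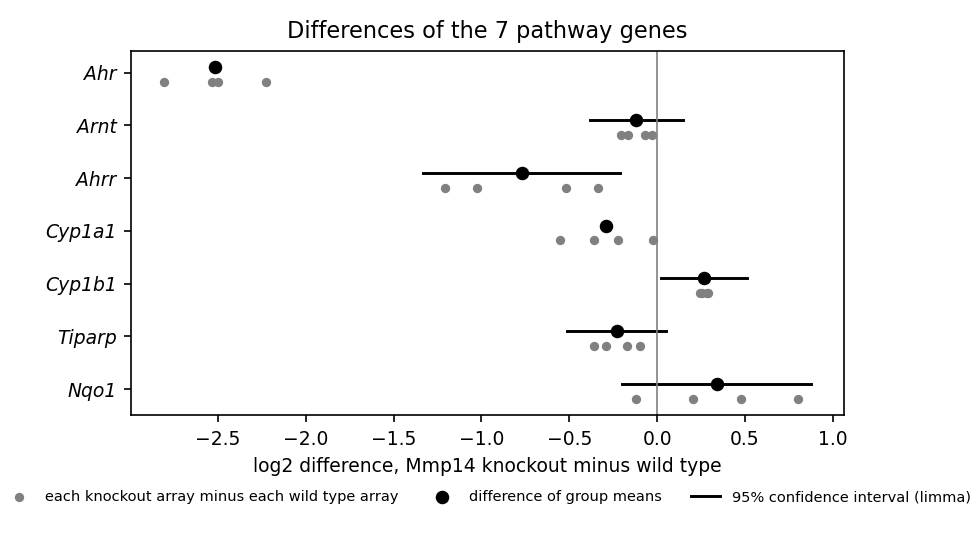
Log2 difference, Mmp14 knockout minus wild type (x axis), for the 7 pathway genes (y axis). Black points are differences of group means (n = 2 per group), lines are 95% confidence intervals from limma, which are not drawn for Ahr (chosen by its fall) and Cyp1a1 (too dim to test), and grey points are the 4 single-array differences. Those of Ahr run from −2.81 to −2.23, and those of Nqo1 lie on both sides of 0.

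Of the 7 genes, 6 passed the dim level. In the limma fit over all tested genes 11.3% were called, that is had an adjusted p under 0.05, 6.2% being higher and 5.12% lower in knockout. With Ahr left aside, limma called 0 of the 5 other tested genes, and 2 of them, Ahrr and Cyp1b1, had an unadjusted p under 0.05, beside 27.5% of all tested genes. The groups did not overlap in 4 of these 5 genes, 3 lower and 1 higher in knockout, against 57.8% of all tested genes, made up of 29.8% lower and 28% higher in knockout. Nothing is read from these counts, since the comparison also chose the pathway. The median difference of the 5 genes was −0.12 log2, beside −0.0041 log2 over all tested genes, whose median absolute difference was 0.175 log2. A missed call does not show that a gene was the same in both genotypes. The intervals given above for these 5 genes show how uncertain each difference was, given the spread between these arrays.

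**Figure D3:**
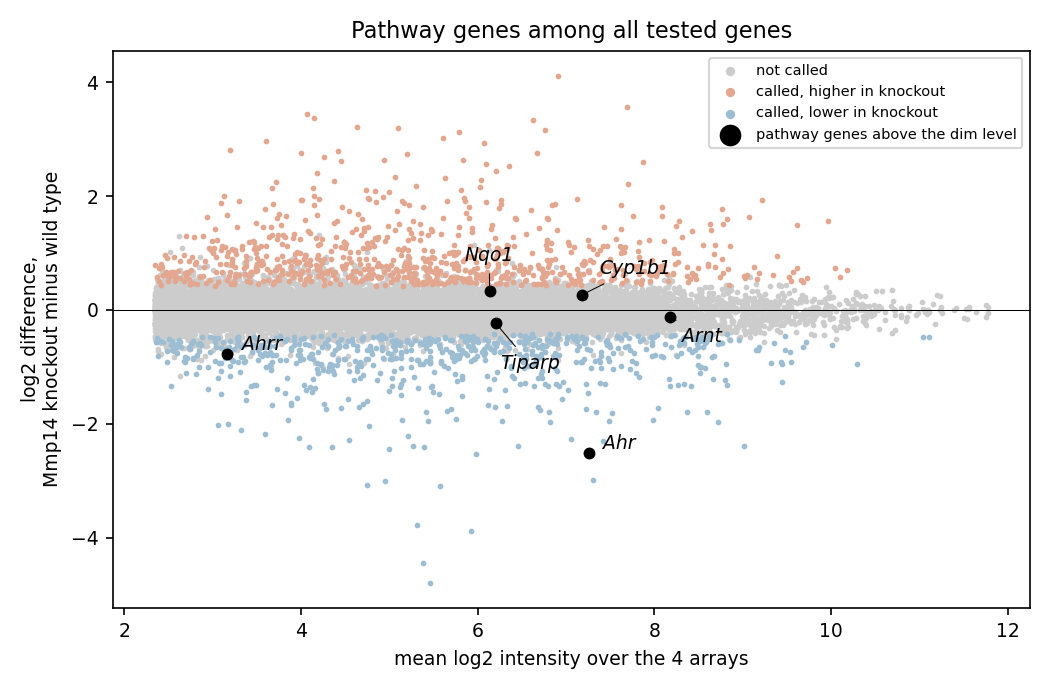
Log2 difference, Mmp14 knockout minus wild type (y axis), against the mean log2 intensity over the 4 arrays (x axis) for the 12708 tested genes. Coloured points were called by limma at an adjusted p under 0.05, and black points are the 6 pathway genes above the dim level. Ahr lies at −2.52 among the largest decreases, Ahrr lies at −0.77, and Arnt, Tiparp, Cyp1b1 and Nqo1 lie between −0.23 and 0.34.

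Genes that surround the receptor were followed in 6 further lists with 87 genes, of which 74 had a probe set with 1 gene symbol and 55 were tested. Of those 55 genes 7 rose, 2 fell and 46 were not called, so that 16.4% were called, beside 11.3% of all tested genes, and their median difference was 0.02 log2. No list had more than 2 called genes.

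In the receptor complex, with its coactivators and turnover factors, 9 of 12 genes were tested, 2 rose, 0 fell, and the median difference was 0.07 log2. Of all tested genes 11.3% were called. An unadjusted limma p under 0.05 was found for 3 of the 9, beside 27.5% of all tested genes. Nrip1, a corepressor of nuclear receptors, gave 6.03 and 5.95 log2 in knockout, against 5.42 and 5.56 log2 in wild type (difference 0.50 log2, SE 0.110, limma adjusted p = 0.0402). Ncoa1, a coactivator that is itself a bHLH-PAS protein, gave 6.74 and 6.68 log2 in knockout, against 6.31 and 6.24 log2 in wild type (difference 0.44 log2, SE 0.103, limma adjusted p = 0.0493). Both calls were lost on leaving out any 1 array, with limma adjusted p of 0.0653 to 0.193 for Nrip1 and 0.0848 to 0.235 for Ncoa1. The HSP90 gene Hsp90aa1, named after its values were seen, had a difference of 0.05 log2 (95% confidence interval −0.25 to 0.35) and was not called.

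Among bHLH-PAS relatives, transcription factors with the same kind of DNA-binding and pairing domains, 10 of 13 genes were tested, with 1 higher, 1 lower and a median of −0.13 log2. Of all tested genes 11.3% were called. An unadjusted limma p under 0.05 was found for 5 of the 10, beside 27.5% of all tested genes. These counts and the median include Sim1, which was not called and was tested only through its wild type signal. It averaged 2.24 log2 in knockout, below the dim level, and 2.70 log2 in wild type. Sim2, a developmental factor that also pairs with ARNT, gave 5.26 and 5.48 log2 in knockout, against 3.45 and 3.68 log2 in wild type. It rose by 1.81 log2 (SE 0.135, limma adjusted p = 0.00148), to 350% of the wild type level, and stayed called without any 1 array. Npas2, a circadian clock factor, gave 3.54 and 3.95 log2 in knockout, against 4.82 and 4.59 log2 in wild type. It fell by 0.96 log2 (SE 0.168, limma adjusted p = 0.0201), with no call without knockout replicate 1 (adjusted p = 0.0586) or wild type replicate 1 (adjusted p = 0.0655). Hif1a and Arnt2, the hypoxia factor that pairs with ARNT and the close relative of Arnt, were named after their values were seen. Hif1a had a difference of 0.02 log2 (95% confidence interval −0.27 to 0.30) and Arnt2 of −0.23 log2 (−0.62 to 0.16), and neither was called.

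Of 14 other genes known to respond to the receptor, 8 had a probe set with 1 symbol, 5 of these were too dim to test, and of the remaining 3 genes 1 rose, 1 fell and Aldh3a1 was not called. Ereg, which encodes the growth factor epiregulin, gave 6.18 and 5.92 log2 in knockout, against 4.22 and 4.76 log2 in wild type. It rose by 1.56 log2 (SE 0.200, limma adjusted p = 0.00768), the opposite direction to Ahr. Its second probe set, however, gave −0.22 log2 and lay near the dim level, averaging 2.26 log2 in knockout and 2.47 log2 in wild type. The mean of the 2 probe sets rose by 0.67 log2 (limma adjusted p = 0.0458). Slc7a5, the gene of an amino acid transporter that carries tryptophan and kynurenine, gave 7.05 and 7.20 log2 in knockout, against 7.63 and 7.56 log2 in wild type. Its fall of 0.47 log2 (SE 0.109, limma adjusted p = 0.0468) was no longer called when any 1 array was left out (limma adjusted p of 0.097 to 0.242).

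Of 19 tested NRF2 and antioxidant genes, which share Nqo1 with the receptor, 1 rose, 0 fell and 18 were not called, beside 11.3% of all tested genes called. An unadjusted limma p under 0.05 was found for 6 of the 19, beside 27.5% of all tested genes. Their median was −0.02 log2, with differences from −0.56 to 0.77 log2. Gsta4, a glutathione transferase gene, gave 3.89 and 3.63 log2 in knockout, against 3.06 and 2.93 log2 in wild type. It rose by 0.77 log2 (SE 0.131, limma adjusted p = 0.0185), with no call without knockout replicate 1 (adjusted p = 0.0825) or wild type replicate 2 (adjusted p = 0.068). The ferritin gene Fth1 had a difference of 0.08 log2 (limma adjusted p = 0.716). Nfe2l2, which encodes NRF2 and was named after its values were seen, had a difference of 0.28 log2 (95% confidence interval 0.02 to 0.55) and was not called (limma adjusted p = 0.158).

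Most enzymes of the route from tryptophan to kynurenine, a source of receptor ligands in the body, were dim. Of 11 genes with a probe set 8 were below the dim level, among them Ido1 and Tdo2. Of all 22180 genes with a probe set, 12708 reached that level. None of the 3 tested genes of the list was called by limma at an adjusted p under 0.05. Afmid, which encodes the enzyme that releases kynurenine, gave 4.47 and 4.41 log2 in knockout, against 4.18 and 4.12 log2 in wild type (difference 0.29 log2, SE 0.102, limma adjusted p = 0.128). Kyat3, a kynurenine aminotransferase gene, had a difference of 0.14 log2 (limma adjusted p = 0.648). Of these 3 genes only Afmid had an unadjusted p under 0.05, beside 27.5% of all tested genes.

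Among other xenobiotic and quinone enzymes 11 of 14 genes were tested, 2 rose, 0 fell and 9 were not called, with a median of −0.03 log2. Of all tested genes 11.3% were called. An unadjusted limma p under 0.05 was found for 5 of the 11, beside 27.5% of all tested genes. Fmo1, which encodes a flavin-containing monooxygenase, gave 5.24 and 5.04 log2 in knockout, against 3.68 and 3.54 log2 in wild type. It rose by 1.53 log2 (SE 0.123, limma adjusted p = 0.0018), to 289% of the wild type level, and stayed called without any 1 array. Gstt1, another glutathione transferase gene, rose by 0.48 log2 (SE 0.103, limma adjusted p = 0.0372), but was not called when any 1 array was left out (limma adjusted p of 0.0861 to 0.197).

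**Figure D4:**
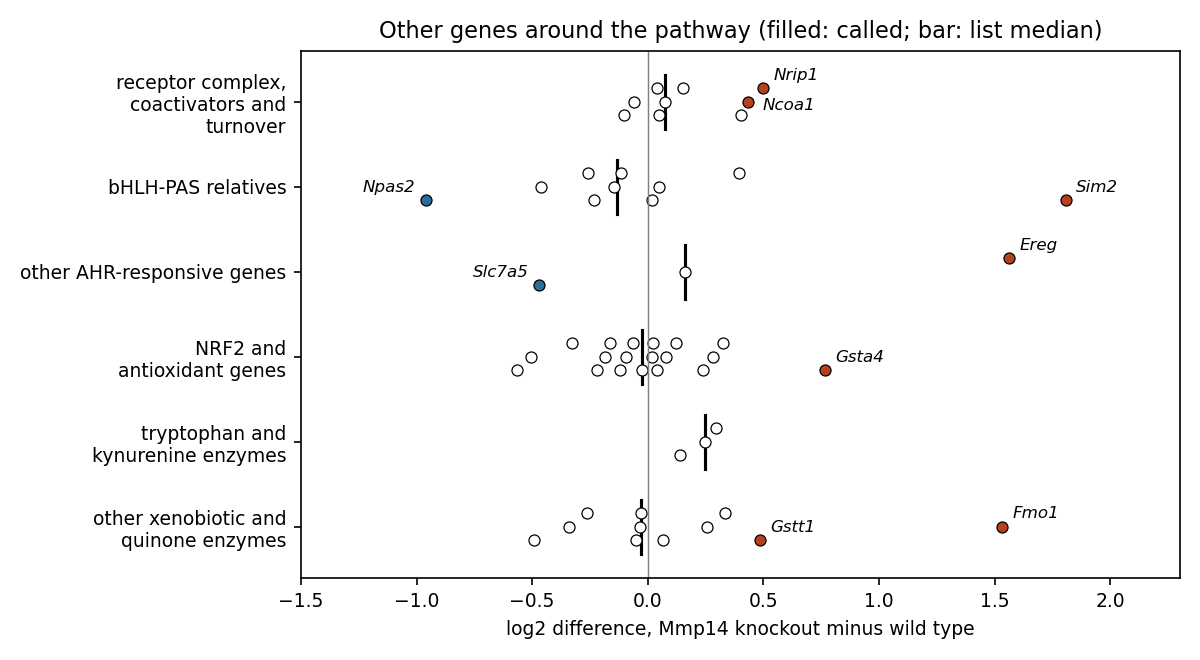
Log2 difference, Mmp14 knockout minus wild type (x axis), of the 55 tested genes in 6 lists around the receptor (y axis). Filled points were called by limma at an adjusted p under 0.05 (red higher, blue lower in knockout), open points were not called, and the black bar is the median of the list. The medians lie between −0.13 and 0.25, and Sim2, Ereg and Fmo1 stand furthest to the right.

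The tested genes whose 4 values were most like those of Ahr were Hey2, Notum, Fam180a, Tmem100 and Cavin4. Likeness was the Euclidean distance between the 4 log2 values after each gene's own mean was taken off, and it ran from 0.357 for Hey2 to 0.486 for Cavin4. Hey2, a Notch target and transcriptional repressor, gave 3.04 and 2.67 log2 in knockout, against 5.08 and 5.13 log2 in wild type. Notum, an enzyme gene of the Wnt pathway, gave 2.86 and 2.92 log2 in knockout, against 5.26 and 5.33 log2 in wild type, and its second probe set gave a difference of −0.30 log2. The differences of all 5 genes lay between −2.41 and −2.25 log2. With 4 arrays in 2 groups, such a likeness says little more than that these genes had a difference of about the same size as Ahr.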

How the data were processed

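The authors deposited log2 intensities of 41345 probe sets on 4 Affymetrix arrays. Per the labels' protocols, cDNA was amplified from 10 ng of total RNA and carried biotin as label. Per the submitters' processing notes, limma and oligo were used, with no role named. The normalization and the genome build are not given in the sources used here. The log2 scale was read from the values, which ran from 0.43 to 12.2 with array medians of 2.32 to 2.37. The number of arrays limits the precision.

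Probe sets with exactly 1 gene symbol were kept, the brightest stood for its gene, and a gene was tested if its 4 values averaged 2.34 log2 or more, the median over all probe sets. Knockout was compared with wild type in R 4.3.3 with limma 3.58.1 (lmFit, eBayes, two-sided, 2 residual degrees of freedom, no block), with Benjamini-Hochberg adjustment over all 12708 tested genes. The fit was also run on simulated data. Their variances came from limma's own fitted prior and their noise was normal, so nothing about these arrays was tested. The pathway genes, lists and tests were chosen with earlier results of these data known. Of each list the called genes were named, up to 6 by size, and where fewer than 2 were called the brightest others made 2. The 5 genes nearest to Ahr leave out unnamed loci. Alternatives changed the filter, scaling, variance prior, weights, probe set choice, block, threshold and arrays.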

Additional observations from a re-analysis of the deposited data

How the results depend on the processing

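The difference of Ahr ran from −2.67 to −2.36 log2 over the 13 alternatives run for it. Only the alternatives that changed the scaling or left out an array could move it, since Ahr had 1 probe set. The rest left its difference of group means as it was. The number of genes called, 1439 as reported, was 188 when every probe set of the table was fitted together, 2365 at an adjusted p under 0.10, 459 at an adjusted p under 0.01, and 687 to 1131 when 1 array was left out, where the lone array of a group is assumed to vary like the others. Of the 5 tested pathway genes other than Ahr, 0 were called as reported, 1 (Ahrr) at an adjusted p under 0.10 and 0 to 1 when 1 array was left out. With the replicate number as a block 1057 genes were called and 0 of the 5 pathway genes, and the calls of Gstt1 (adjusted p = 0.0735), Nrip1 (0.0782), Ncoa1 (0.085) and Slc7a5 (0.086) were lost; the numbers are shared labels and not a known pairing, with a correlation of −0.04 between the deviations of arrays that share a number. Over the 19 named pathway and list genes there were 229 alternative values: 189 counted as the same, 37 lost the call, 1 gained it and 2 changed sign. The same meant an unchanged direction and call. For Ahr (13 values) and Cyp1a1 (2 values) no call was compared, and the same meant an unchanged direction with a move smaller than the larger SD of the 2 groups. Leaving out 1 array, Fth1 ran from −0.013 log2 (without knockout replicate 1) to 0.17 log2, and Kyat3 from −0.084 log2 (without knockout replicate 2) to 0.36 log2. Neither gene was called in any of these settings. In the fit of every probe set Ereg (0.0861), Gsta4 (0.132) and Npas2 (0.142) were also not called. The cause was not tested. Cyp1a1, with no filter on dim genes, was not called (adjusted p = 0.382).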

Other observations

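The genes next to Ahr on chromosome 12 were read in the order of RefSeq genes of GRCm38.p6, taking the 3 nearest tested genes on each side, a choice made after the data were seen. On one side stood Snx13, Hdac9 and Twist1, from nearest to farthest. Snx13, a sorting nexin gene, gave 6.93 and 6.95 log2 in knockout, against 7.45 and 7.30 log2 in wild type (difference −0.44 log2, limma adjusted p = 0.0553). Hdac9, a histone deacetylase gene, gave 2.27 and 2.29 log2 in knockout, against 2.99 and 3.27 log2 in wild type. Its knockout arrays were below the dim level of 2.34 log2, and it was tested only through its wild type signal, so no difference or call is given. Twist1, a mesenchymal transcription factor gene, gave 6.76 and 6.78 log2 in knockout, against 7.77 and 7.82 log2 in wild type (difference −1.02 log2, limma adjusted p = 0.0032). On the other side Tspan13, a tetraspanin gene and the nearest, gave 5.67 and 6.13 log2 in knockout, against 4.76 and 4.51 log2 in wild type (difference 1.27 log2, limma adjusted p = 0.011). Bzw2 and Ankmy2, the next in order, had differences of −0.53 and 0.32 log2 and were not called (limma adjusted p of 0.0848 and 0.151).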
